A study of Homo sapiens with 6 samples.

Results

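Readthrough genes that join 2 neighbouring genes were examined in OVCAR8 cells, a human ovarian cancer line, labelled wild type and treated for 72 h with DMSO, the solvent, or with 2 nM pladienolide B, an inhibitor of the splicing factor SF3B1. There were 3 samples in each group, numbered 1 to 3 in the labels, and nothing states that they came from separate cultures, so p-values measure the spread between these samples, which may be technical. A member is a gene of the deposited table whose symbol splits at 1 hyphen into 2 symbols that are also in the table, with a mean of at least 10 adjusted reads over the 6 samples. The members were thus selected on that mean level, taken over both treatments together, and not on their change. The gene named first is called the upstream partner and the gene named second the downstream partner. Of 38637 genes in the table, 152 had such a symbol and 139 reached the minimum mean. They comprised 84 protein-coding genes, 51 lncRNAs and 4 transcribed pseudogenes, as the table types them.

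Transcription normally ends after the poly(A) signal of a gene, where the transcript is cut and RNA polymerase II is released. When the polymerase runs on into the next gene on the same strand, the long transcript can be spliced from an exon of the first gene to an exon of the second, and annotation lists the product as a gene of its own with a hyphenated name. SF3B1 is part of the U2 snRNP, which recognises the branch point near the 3′ end of introns, so the junction that makes a joined RNA needs the same machinery as any other junction.

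Values are adjusted reads, which are reads per gene brought to a common library size by the authors. The reads recovered from them were between 22621338 and 26130882 per sample. Agreement within a group was scored by a chi-square per degree of freedom, which is larger where 2 samples differ more. It was 7.29 and 7.2 between DMSO replicate 2 and DMSO replicates 1 and 3, and 2 between those. Between pladienolide B samples it was 3.15, 3.22 and 4.79. Of 10 epithelial and ovarian markers, KRT8, KRT18, KRT7, MSLN and PAX8 had means from 4225 to 45677 adjusted reads and EPCAM had 461, while CDH1, WT1, MUC16 and KRT19 were low, at 16.5 to 31.1. The mesenchymal gene VIM had 65911, and PTPRC and CD3E, which define leukocytes and T cells, had means of 0.497 and 0. A change is the difference of the mean log2(value + 1) with pladienolide B from that with DMSO, so a positive value is higher after treatment, and it was called at an adjusted p below 0.05 with limma over all 16178 genes tested.

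The position of the 2 names on the genome was as the rule assumes for 138 of the 139 members, where the joined gene and both partners lay on 1 chromosome and strand and overlapped. The exception was BORCS7-ASMT on chromosome 10, whose second symbol is that of a gene on chromosome X. Some partners were used more than once: PRH1 and RAB4B each served 2 joined genes, and BLOC1S5 was downstream in EEF1E1-BLOC1S5 and upstream in BLOC1S5-TXNDC5. Just inside the minimum mean lay HOXA10-HOXA9 with 10.7 adjusted reads, CRYZL2P-SEC16B with 11.5 and BUB1B-PAK6 with 14.9. Just outside it were LIMS3-LOC440895 with 7.67, SLX1B-SULT1A4 with 7.27 and KLRC4-KLRK1 with 5.56. HOXA10-HOXA9 was also the member that failed the filter on low values, so 138 joined genes were tested, with 128 upstream and 124 downstream partner genes.

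The joined genes consisted almost wholly of exons that also belong to a partner. GENCODE models of all 3 genes were found for 111 loci. There the joined gene had a median of 96.8% of its exonic bases inside partner exons, and 33 joined genes had 0 bases of their own. The table still gave these 33 genes between 23.1 and 11279 adjusted reads, with a median of 981, against a median of 540 for the 78 joined genes that have exonic bases of their own. How reads in shared exons were assigned, and whether strand was used, is not given in the sources used here, so the reads of a joined gene and of its partners cannot be told apart in these exons. Over the 138 members on 1 chromosome and strand with both partners, the joined gene had a median of 64.2% of the summed reads of both partners, and at 8 loci it exceeded the sum.

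**Figure D1:**
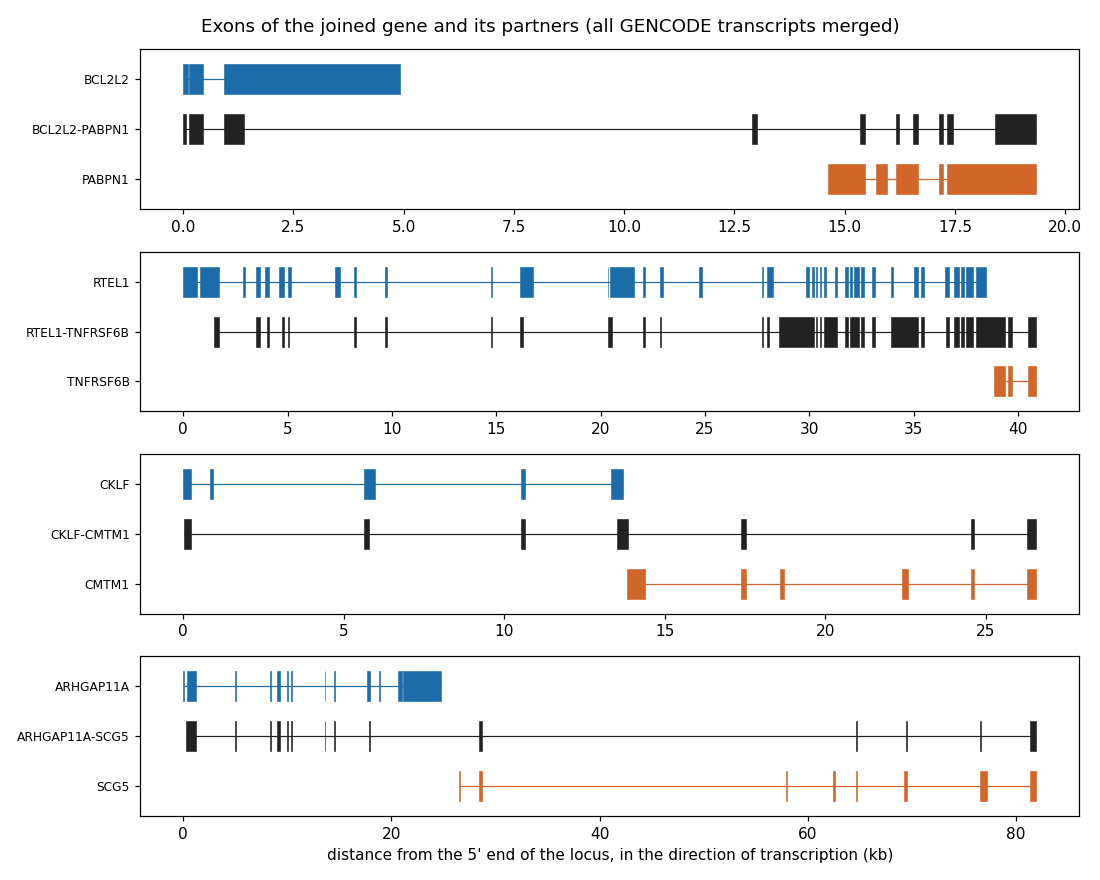
Exons of 4 joined genes (black) and of their upstream (blue) and downstream (orange) partners, with all GENCODE transcripts of a gene merged, plotted by distance in kb from the 5′ end of the locus. Nearly every exon of BCL2L2-PABPN1, CKLF-CMTM1 and ARHGAP11A-SCG5 lies over a partner exon. In these merged blocks the joined gene covers only part of the last BCL2L2 block, extends the last CKLF block and leaves out the last ARHGAP11A blocks. The canonical transcript of BCL2L2-PABPN1 leaves out the last BCL2L2 exon, and that of CKLF-CMTM1 leaves out the later CKLF exons. RTEL1-TNFRSF6B covers all exons of TNFRSF6B and has blocks of its own within the RTEL1 part.

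The junction that leaves the upstream partner was found in the models of 108 joined genes. Its donor was also used by the upstream partner at 80 loci and was the last donor of the partner's canonical transcript at 55. At 67 loci the acceptor was the first acceptor of the downstream partner. Where the upstream partner's canonical transcript used the same donor, at 75 loci, the joined intron was the longer one at 74, with a median of 18755 bases against 1717. Both acceptors ended in AG at all 75 loci. The median share of C and T in the 20 bases before that AG was 75.0% in both sets, and the joined acceptor was the richer at 30 loci and the upstream one at 33.

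The acceptors at 6 of the loci described further on are given to show the choice that a shared donor faces. They were picked after the values were seen, and some loci with larger differences are not among them. Each run is the last 50 intronic bases in hg38, 5′ to 3′ on the strand of the gene, and capitals mark the AG at the intron end.
CKLF-CMTM1 into CMTM1, chr16:66577054-66577103, plus strand: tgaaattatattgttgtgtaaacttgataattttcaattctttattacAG
CKLF from the same donor, chr16:66563072-66563121, plus strand: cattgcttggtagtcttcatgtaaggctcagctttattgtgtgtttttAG
ARHGAP11A-SCG5 into SCG5, chr15:32643536-32643585, plus strand: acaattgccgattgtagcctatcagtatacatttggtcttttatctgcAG
ARHGAP11A from the same donor, chr15:32633883-32633932, plus strand: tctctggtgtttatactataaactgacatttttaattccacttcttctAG
PPT2-EGFL8 towards EGFL8, chr6:32164529-32164578, plus strand: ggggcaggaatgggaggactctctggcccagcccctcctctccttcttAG
PPT2 from the same donor, chr6:32162757-32162806, plus strand: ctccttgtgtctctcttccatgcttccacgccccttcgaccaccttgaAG
PDCD6-AHRR into AHRR, chr5:343843-343892, plus strand: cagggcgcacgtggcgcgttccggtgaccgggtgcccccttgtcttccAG
PDCD6 from the same donor, chr5:306552-306601, plus strand: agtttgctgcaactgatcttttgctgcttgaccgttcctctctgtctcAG
PEDS1-UBE2V1 into UBE2V1, chr20:50096821-50096870, minus strand: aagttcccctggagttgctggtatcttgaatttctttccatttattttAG
PEDS1 from the same donor, chr20:50125180-50125229, minus strand: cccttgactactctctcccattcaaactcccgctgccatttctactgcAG
RTEL1-TNFRSF6B into TNFRSF6B, chr20:63696710-63696759, plus strand: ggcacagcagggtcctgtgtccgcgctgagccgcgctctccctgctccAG
The content of C and T before the AG was 70.0% in both CKLF acceptors, and it was lower in the joined than in the upstream acceptor at ARHGAP11A-SCG5, with 70.0% against 85.0%. At PPT2-EGFL8 the joined acceptor was the richer one, against 70.0% in that of PPT2. RTEL1-TNFRSF6B leaves RTEL1 from a donor that the models of RTEL1 do not use, so no partner acceptor is set beside it.

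The start of a joined gene is often at or near that of its upstream partner. In the positions of the deposited table the first base was the same at 50 of the 111 loci with gene models, and within 100 bases at 80. Promoter windows from RefSeq (GRCh38.p14) were present for both genes at 105 loci, and the windows of the joined and the upstream gene were identical at 63 of them. These are the 250 bases before the start that the joined and the upstream gene share at a locus where they moved in opposite directions, RTEL1-TNFRSF6B, and at one where they fell together, CKLF-CMTM1. In the GENCODE models RTEL1-TNFRSF6B starts at base 1490 of the locus and RTEL1 at base 0, so the shared start there is that of RefSeq. Capitals mark the 10 bases next to the start.
RTEL1 and RTEL1-TNFRSF6B, chr20:63657560-63657809, plus strand: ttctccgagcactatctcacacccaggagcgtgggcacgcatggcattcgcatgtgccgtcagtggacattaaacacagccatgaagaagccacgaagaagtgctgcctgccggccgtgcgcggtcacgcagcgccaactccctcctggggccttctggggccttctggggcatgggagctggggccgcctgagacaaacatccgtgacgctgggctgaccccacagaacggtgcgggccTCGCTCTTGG
CKLF and CKLF-CMTM1, chr16:66552326-66552575, plus strand: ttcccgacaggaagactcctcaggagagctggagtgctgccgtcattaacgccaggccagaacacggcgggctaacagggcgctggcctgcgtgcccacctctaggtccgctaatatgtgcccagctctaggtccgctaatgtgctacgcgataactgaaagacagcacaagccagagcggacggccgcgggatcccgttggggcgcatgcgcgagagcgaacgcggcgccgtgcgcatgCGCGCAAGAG
The share of G and C was 64.0% in both runs.

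Called joined genes went in both directions in similar numbers. Of 138 tested, 25 rose and 30 fell, so that 39.9% were called, against 47.6% of all genes tested, of which 22.4% rose and 25.2% fell. Their median log2 change was 0.01, against 0 for all genes. Only 3 joined genes were called with a change of at least 2-fold, FKBP1A-SDCBP2, RTEL1-TNFRSF6B and CKLF-CMTM1, where 3.93% of all genes passed both limits. The samples of the 2 treatments did not overlap for 66 joined genes, 33 higher and 33 lower with pladienolide B, and they did not overlap for 55.3% of all tested genes. Among upstream partners 20 of 128 rose and 34 fell, and among downstream partners 29 of 124 rose and 27 fell. By type, 33 of 84 protein-coding joined genes and 22 of 54 others were called.

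Each joined gene was then set against its own partners, by fitting the difference of log2 values within each sample. These differences were fitted together with those of all neighbouring genes on the same strand, and the p-values were adjusted over all 16250 pairs. The change of the joined gene differed from that of the upstream partner at 31 of 128 loci and from that of the downstream partner at 12 of 123. That is 24.2% and 9.76%, where the changes of neighbouring genes differed in 40.7% of 15884 pairs and in 24.9% of the 422 neighbouring pairs that overlap. Overlap of those pairs was judged by position and not by exons. A joined gene shares exonic bases, and perhaps reads, with its partners, so these shares are not a like comparison. The partners themselves differed from each other at 44 of 115 loci. At the 114 loci with all 3 genes tested, the median size of the difference was 0.20 on the log2 scale from the upstream partner, 0.09 from the downstream partner and 0.34 between the partners.

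The joined change lay between the partner changes at 80 of these 114 loci. It was nearer to that of the downstream partner at 68, nearer to that of the upstream partner at 44 and as near to both at 2. It lay within 0.1 of the downstream change at 65 loci (57.0%) and within 0.1 of the upstream change at 35 (30.7%). Across the 114 loci the joined changes had a Pearson correlation of 0.67 with the downstream changes and 0.33 with the upstream ones, and the partner changes had -0.06 with each other. These correlations are a description over loci that share the same 6 libraries, and the genes of a locus share exons. The nearer partner was the one with the higher mean at 79 loci. The downstream partner had the higher mean at 46 loci, and the joined change was nearer to it at 40 of them. The upstream partner had the higher mean at 68, and there the joined change was nearer to it at 39 and nearer to the downstream one at 28.

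**Figure D2:**
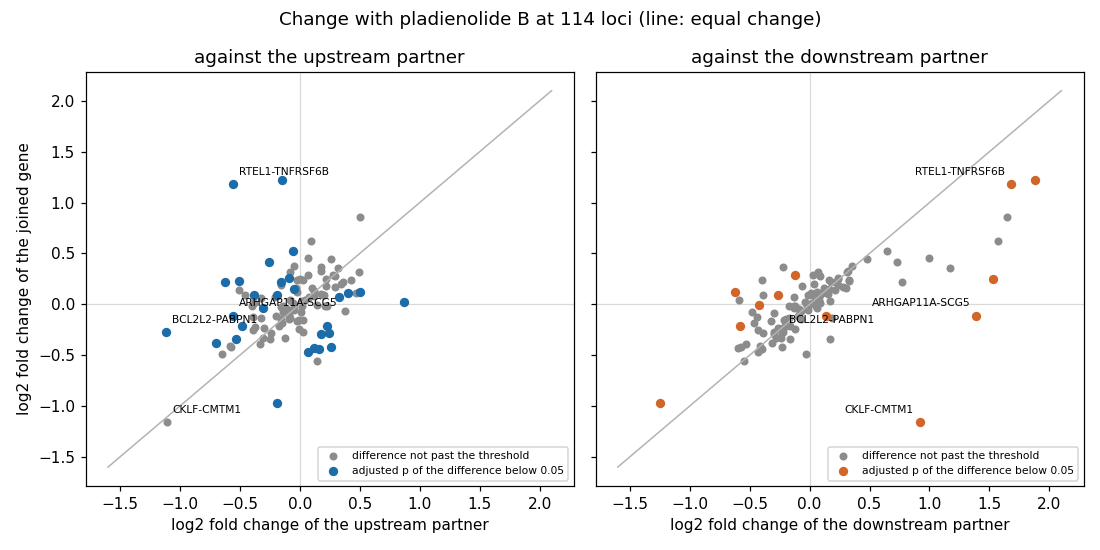
The log2 fold change of the joined gene (vertical) against that of its upstream partner (left) and its downstream partner (right) at 114 loci, with a line of equal change. Coloured points are loci whose difference had an adjusted p below 0.05. Points lie closer to the line on the right, where the correlation is 0.67, than on the left, where it is 0.33, and CKLF-CMTM1 lies far below the line on the right.

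Of the 48 joined genes that were called at these 114 loci, 12 had both partners called in the same direction, 22 had only the downstream partner so and 12 only the upstream partner. The remaining 2 were HSPE1-MOB4 and TSNAX-DISC1, named for this after their values were seen, which rose by 0.16 and 0.29 with neither partner called in that direction. The partners were both called in the same direction at 13 loci, and the joined gene was called in that direction at 12 of them. They were called in opposite directions at 11 loci, where the joined gene followed the downstream partner at 5, followed the upstream partner at 1 and was not called at 5. A further 31 joined genes were not called although at least 1 of their partners was.

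RTEL1-TNFRSF6B had the widest gap to an upstream partner. RTEL1 is a helicase that keeps telomeres intact, and TNFRSF6B, or decoy receptor 3, is a secreted protein that binds FAS ligand. The joined gene, a lncRNA on chr20:63657810-63698698, had 3328, 3715 and 3343 adjusted reads with DMSO and 7923, 7329 and 8261 with pladienolide B. All 3 treated samples were above all controls, and it rose by 1.18 (SE 0.0521, adjusted p = 3.0e-11). TNFRSF6B had 2510, 2803 and 2573 with DMSO and 8688, 7858 and 8806 with pladienolide B, a rise of 1.68 (adjusted p = 1.7e-12). RTEL1 went the other way, from 1351, 1483 and 1413 to 874, 970 and 1048, and fell by 0.56 (adjusted p = 2.8e-06). The joined change was 1.74 above that of RTEL1 (SE 0.0759, adjusted p = 8.7e-09) and lower than that of TNFRSF6B, with a difference of -0.51 (SE 0.0429, adjusted p = 1.4e-06). All of the exonic bases of TNFRSF6B, 100%, lie in exons of the joined gene, and these make up 20.1% of the bases that the joined gene shares with its partners. By reads the order was turned round. TNFRSF6B had a mean of 5540 adjusted reads, or 4860 per kb of exon, against 1190 and 139 for RTEL1. The mean of the joined gene was 5650.

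CKLF-CMTM1 was the one locus with partners called in opposite directions at which the joined gene followed the upstream one. CKLF encodes a chemokine-like factor and CMTM1 a related protein with a MARVEL membrane domain. The joined gene, on chr16:66552576-66579135, had 311, 386 and 403 adjusted reads with DMSO and 168, 165 and 154 with pladienolide B, and it fell by 1.16 (SE 0.111, adjusted p = 2.5e-07) with no overlap between the groups. CKLF had 897, 1030 and 892 with DMSO and 477, 400 and 425 with pladienolide B, and fell by 1.11. CMTM1 was low, with 45.1, 49.4 and 55.9 with DMSO and 87.7, 86.7 and 114 with pladienolide B, and rose by 0.92 (SE 0.181, adjusted p = 0.00049). The joined gene did not differ detectably from CKLF, at -0.05 (SE 0.125, adjusted p = 0.796), and its difference from CMTM1 was -2.08 (SE 0.192, adjusted p = 2.8e-06), the widest gap to a downstream partner. The joined gene holds 58.7% of the CKLF exonic bases and 40.3% of those of CMTM1.

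BCL2L2-PABPN1 joins the gene of BCL-W, an inhibitor of apoptosis, to that of the nuclear poly(A)-binding protein. The joined gene spans chr14:23306833-23326163, with the same first base as BCL2L2 and the same last base as PABPN1. Its values were 3546, 3498 and 3399 adjusted reads with DMSO and 2928, 2874 and 2877 with pladienolide B, and it fell by 0.27 (SE 0.0419, adjusted p = 5.9e-05). PABPN1 had 3696, 3680 and 3562 against 3196, 3054 and 3173, and fell by 0.22 (adjusted p = 0.00049). BCL2L2 fell much further, from 1769, 1730 and 1742 to 814, 808 and 790, a change of -1.12 (SE 0.0513, adjusted p = 4.9e-11). The groups did not overlap for any of the 3 genes.

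The change of BCL2L2-PABPN1 was 0.85 above that of BCL2L2 (SE 0.0612, adjusted p = 3.5e-07) and did not differ detectably from that of PABPN1, at -0.05 (SE 0.0472, adjusted p = 0.414). Its reads were 64.9%, 64.7% and 64.1% of the partner sum with DMSO and 73.0%, 74.4% and 72.6% with pladienolide B, without overlap. In the gene models it holds 18.4% of the exonic bases of BCL2L2 and 39.3% of those of PABPN1, and 108 of its 2370 exonic bases lie in neither. It leaves BCL2L2 from the donor of the last BCL2L2 intron, whose 616 bases it replaces by an intron of 11535 bases.

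**Figure D3:**
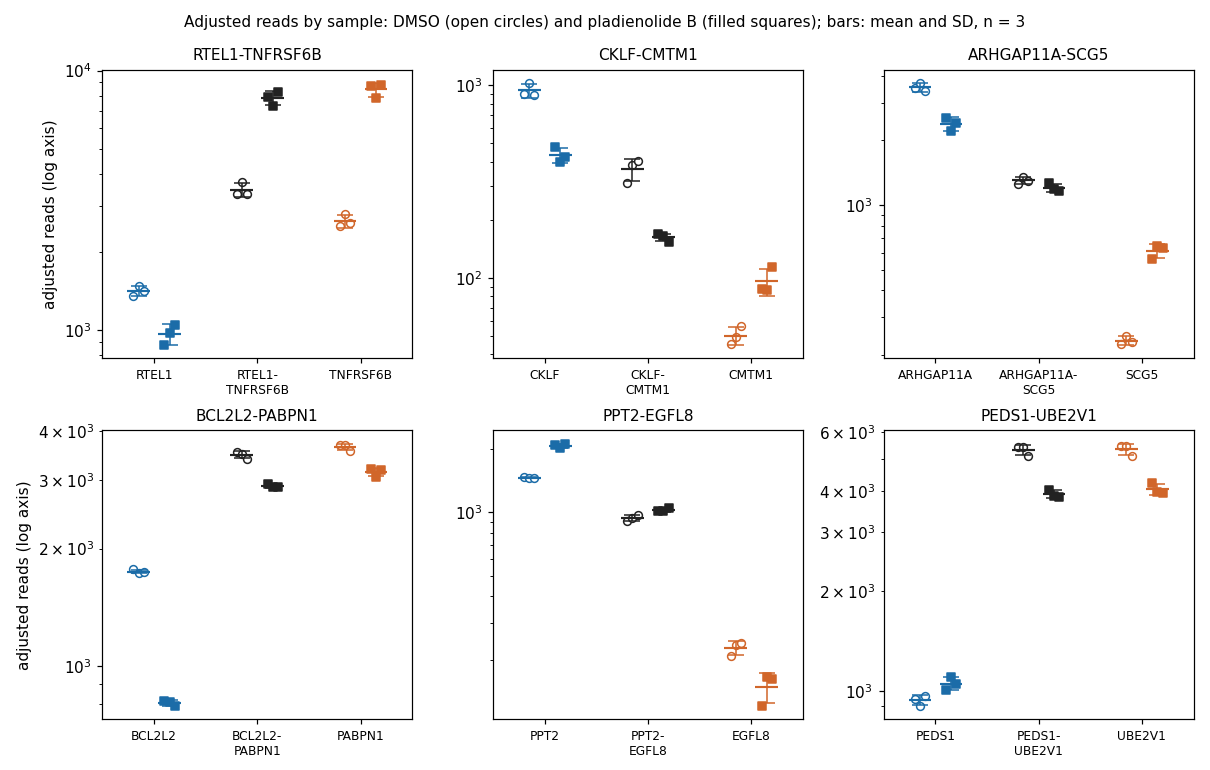
Adjusted reads per sample (log axis) of the upstream partner, the joined gene and the downstream partner at 6 loci, with DMSO as open circles and pladienolide B as filled squares, and with the mean and SD of 3 samples. At RTEL1-TNFRSF6B the outer genes move apart and the joined gene moves with TNFRSF6B, at CKLF-CMTM1 it moves with CKLF, and at BCL2L2-PABPN1 and PEDS1-UBE2V1 it keeps close to the downstream partner.

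Of the 5 loci with partners called in opposite directions and the joined gene not called, 2 are described here. At both, the joined change lay between those of the partners. ARHGAP11A, a GTPase-activating protein, fell by 0.56, and SCG5, the 7B2 chaperone of a prohormone convertase, rose by 1.39, from 224, 245 and 230 to 561, 645 and 629 adjusted reads. ARHGAP11A-SCG5 had 1257, 1352 and 1293 with DMSO and 1264, 1183 and 1164 with pladienolide B, with overlap and a log2 change of -0.11 (SE 0.0550, adjusted p = 0.106). It was 0.45 above ARHGAP11A (adjusted p = 0.00013) and its difference from SCG5 was -1.50 (SE 0.102, adjusted p = 2.2e-07). At PPT2-EGFL8 the order was turned round. PPT2, a lysosomal thioesterase, rose by 0.50 and EGFL8, which has EGF-like domains, fell by 0.62. The joined gene had 905, 942 and 967 against 1007, 1008 and 1041, all higher with pladienolide B but not called (0.12, SE 0.0560, adjusted p = 0.0915), and its difference was -0.38 from PPT2 (adjusted p = 0.00048) and 0.74 from EGFL8 (adjusted p = 0.00081).

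Among the other large rises, FKBP1A-SDCBP2 was the largest of all, and it had few adjusted reads beside its upstream partner. FKBP1A, the FK506-binding protein FKBP12, had a mean of 8681 adjusted reads, and the joined lncRNA had 70.0, 42.4 and 53.8 with DMSO and 121, 147 and 118 with pladienolide B. It rose by 1.22 (SE 0.187, adjusted p = 4.5e-05) while FKBP1A fell by 0.15, a difference of 1.37 (SE 0.208, adjusted p = 0.00017). SDCBP2, the syntenin-2 gene, rose from 23.5, 20.2 and 28.5 to 85.6, 109 and 79.2, by 1.88. The joined change was lower, with a difference of -0.66 (SE 0.226, adjusted p = 0.0324), a call that was lost in 5 of 12 other settings, among them leaving out DMSO replicate 1, which gave -0.47, or any 1 of the pladienolide B samples. The adjusted p there was between 0.0641 and 0.121. The joined gene was 0.439% to 0.776% of the partner sum with DMSO and 1.42% to 1.77% with pladienolide B.

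PDCD6-AHRR also went with its downstream gene. PDCD6 is a calcium-binding protein, and AHRR represses the aryl hydrocarbon receptor. The joined lncRNA had 584, 592 and 597 adjusted reads with DMSO and 803, 841 and 895 with pladienolide B, a rise of 0.52 (SE 0.0642, adjusted p = 5.0e-06). AHRR rose by 0.65, while PDCD6 was not called at -0.06. The difference from PDCD6 was 0.57 (SE 0.0819, adjusted p = 1.0e-04), and that from AHRR was -0.14 (SE 0.0759, adjusted p = 0.175). Of the exonic bases shared with partners, 95.5% are those of AHRR.

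The remaining 5 of the 8 largest rises were in joined genes with means of 22.6 to 558 adjusted reads. PRH1-PRR4, between 2 genes of proline-rich secreted proteins, had 51.8, 51.4 and 52.9 adjusted reads with DMSO and 97.9, 106 and 83.2 with pladienolide B, and rose by 0.86 (adjusted p = 0.00052). PRR4 rose by 1.65 (adjusted p = 0.00092), and PRH1 was not called at 0.50 (adjusted p = 0.07). The joined change did not differ detectably from that of PRH1 (0.36, adjusted p = 0.2) or of PRR4 (-0.78, adjusted p = 0.101). ZNF286A-TBC1D26 rose by 0.64 and its zinc-finger partner ZNF286A by 0.50, while TBC1D26 had between 0 and 4.17 adjusted reads and was not tested. ZNF664-RFLNA had a mean of 22.6, 0.762% of its partner sum, and rose by 0.84 (SE 0.306, adjusted p = 0.0326), a call lost in 5 of 14 other settings, among them leaving out DMSO replicate 3, which gave 0.61, or pladienolide B replicate 2, which gave 0.72, or 3, which gave 0.86.

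TIMM23B-AGAP6 rose by 0.45, and both TIMM23B, related to a mitochondrial import subunit, and AGAP6 rose too, by 0.26 and 0.48. The TIMM23B call was lost without DMSO replicate 1 or pladienolide B replicate 1 or 2, at 0.25, 0.20 and 0.24. Genes of these families have near-identical copies, so their reads are uncertain. ZNF559-ZNF177 joins 2 zinc-finger genes that were called in opposite directions, ZNF559 at -0.26 and ZNF177 at 0.73. The ZNF559 call was lost without DMSO replicate 3 or pladienolide B replicate 3, at -0.24 in both, and the ZNF177 call without DMSO replicate 1, at 0.66. It had 67.8, 64.5 and 72.9 adjusted reads with DMSO and 86.6, 93.9 and 94.2 with pladienolide B and rose by 0.42 (SE 0.158, adjusted p = 0.0385), a call lost in 8 of 14 other settings. Among these were leaving out DMSO replicate 1 or 2 or any 1 of the pladienolide B samples, where the adjusted p ran up to 0.0953.

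At PEDS1-UBE2V1 the joined gene and the downstream partner were almost the same in adjusted reads and in change. PEDS1 makes the vinyl ether bond of plasmalogens, and UBE2V1 is a ubiquitin-conjugating enzyme variant. The joined gene had 5412, 5400 and 5088 adjusted reads with DMSO and 4036, 3863 and 3829 with pladienolide B, and UBE2V1 had 5457, 5452 and 5075 against 4232, 3966 and 3950. They fell by 0.44 and 0.40, while PEDS1 rose by 0.16 (adjusted p = 0.0276), a call lost in 5 of 14 other settings, among them leaving out DMSO replicate 1 or 2 or pladienolide B replicate 2 or 3. The difference was -0.60 from PEDS1 (SE 0.0767, adjusted p = 3.9e-05) and -0.04 from UBE2V1 (SE 0.0428, adjusted p = 0.456), and the joined gene has 0 exonic bases outside its partners.

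The joined gene was also close to its downstream partner at TMEM256-PLSCR3 and ABHD14A-ACY1. TMEM256-PLSCR3 had 995, 1007 and 952 adjusted reads against 659, 717 and 767 and fell by 0.47, as PLSCR3, of the phospholipid scramblase family, fell by 0.43, while TMEM256 was not called at 0.07. ABHD14A-ACY1 had 478, 424 and 474 against 320, 335 and 367 and fell by 0.43, and ACY1, the aminoacylase gene, fell by 0.60. Both joined genes differed from the upstream partner, by -0.54 (adjusted p = 0.00109) and -0.55 (adjusted p = 0.00404), and neither was detectably different from the downstream one (adjusted p = 0.717 and 0.163).

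The other 3 of the 8 largest falls had 1 partner with few reads. FAM47E-STBD1 fell by 0.56, from 834, 905 and 858 to 555, 584 and 621, and STBD1, a glycogen-binding protein, fell by 0.55, while FAM47E had between 12.1 and 27.6 adjusted reads. IPO11-LRRC70 fell by 0.49 and IPO11, a nuclear import receptor, by 0.52, while LRRC70, at a mean of 7.24, was not tested. GET1-SH3BGR had 140, 147 and 102 with DMSO and 107, 79.3 and 88.2 with pladienolide B, which overlap, and fell by 0.49 (SE 0.167, adjusted p = 0.0226), as GET1, of the pathway that inserts tail-anchored proteins, fell by 0.65. The GET1-SH3BGR call was lost in 5 of 14 other settings, among them leaving out DMSO replicate 1 (-0.43), DMSO replicate 2 (-0.39) or pladienolide B replicate 2 (-0.40) or 3 (-0.47).

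**Figure D4:**
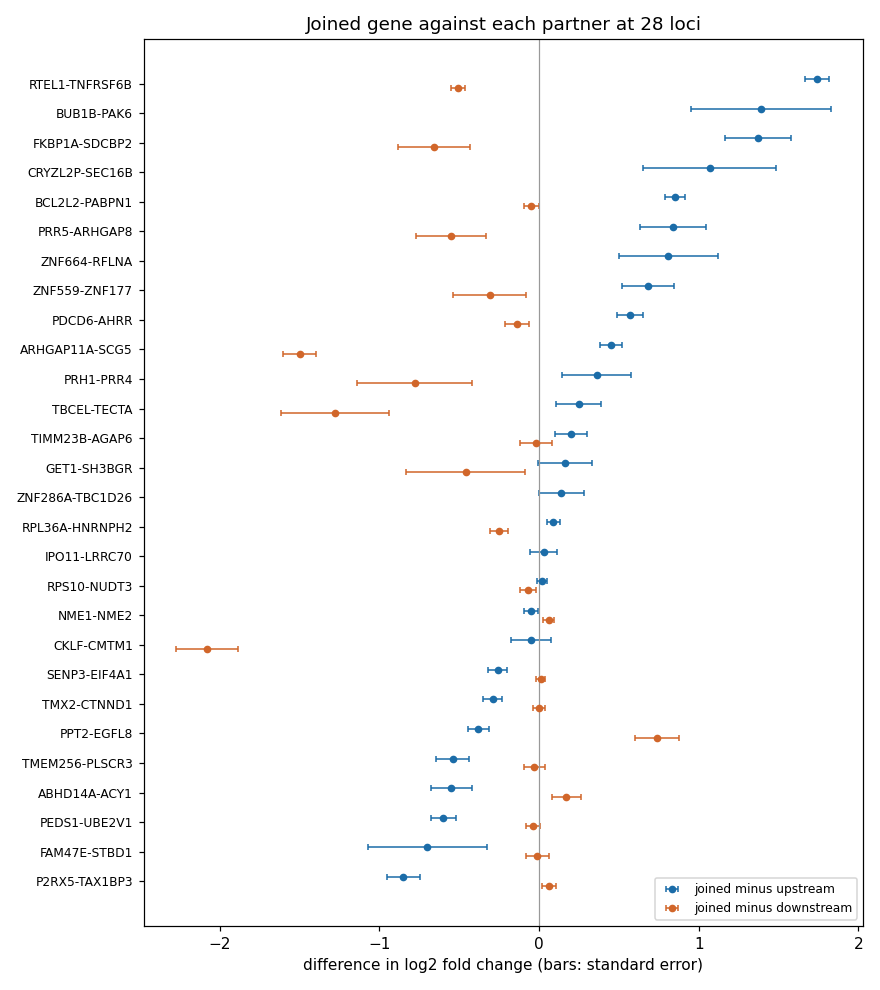
Difference in log2 fold change between the joined gene and its upstream partner (blue) and downstream partner (orange) at 28 loci, with bars of 1 standard error. The upstream differences run from -0.85 at P2RX5-TAX1BP3 to 1.74 at RTEL1-TNFRSF6B, and many of the downstream ones lie near 0.

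Some loci stood out by a difference although the joined gene was not called. P2RX5, an ATP-gated channel, rose by 0.87, and TAX1BP3, a PDZ-domain protein, was at -0.04. P2RX5-TAX1BP3 had 5117, 5383 and 4975 adjusted reads against 5282, 5268 and 5159, a change of 0.02, with a difference of -0.85 from P2RX5 (SE 0.102, adjusted p = 2.5e-05) and of 0.06 from TAX1BP3 (adjusted p = 0.293). PRR5, a subunit of mTORC2, fell by 0.62, and ARHGAP8 rose by 0.77, a call lost without DMSO replicate 1 (0.65) or pladienolide B replicate 3 (0.70). PRR5-ARHGAP8 had 63.0, 61.5 and 75.8 against 64.8, 85.2 and 85.2, which was 0.84 above PRR5 (adjusted p = 0.00548). TBCEL-TECTA, which runs into the gene of tectorin alpha of the inner ear, had a mean of 146 and a change of 0.25 against 1.53 for TECTA, a difference of -1.28 (SE 0.337, adjusted p = 0.00822). TECTA had a mean of only 18.5 adjusted reads, and 6.3% of its exonic bases lie in the joined gene.

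BUB1B-PAK6, near the minimum mean, was the least certain of these. It had 17.1, 14.1 and 4.56 adjusted reads with DMSO and 18.7, 16.1 and 19.0 with pladienolide B, and its change was not called (0.72, SE 0.427, adjusted p = 0.18). BUB1B, a kinase of the spindle checkpoint, fell by 0.67, and the difference of 1.39 was called (SE 0.436, adjusted p = 0.0216). That call was lost in 5 of 11 other settings. Without DMSO replicate 3 the difference was 0.91, with an adjusted p of 0.0803, and without pladienolide B replicate 1 or 3 it was 1.39 and 1.34.

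The joined genes with the highest means changed little. These means are not corrected for length and may include reads of partners. Per kb of exon, RPL36A-HNRNPH2 (10300) and NME1-NME2 (9090) were above SENP3-EIF4A1 (6500). SENP3-EIF4A1, the highest of all, had a mean of 22861 adjusted reads, 98.9% of its partner sum, and a change of 0.07. EIF4A1, the translation initiation helicase, was at 0.05, and the SUMO protease gene SENP3 rose by 0.33, so that the joined gene differed by -0.26 from SENP3 (adjusted p = 0.00283) and by 0.01 from EIF4A1. RPS10-NUDT3 and NME1-NME2, which join a ribosomal protein gene to a phosphohydrolase gene and 2 nucleoside diphosphate kinase genes, had means of 19863 and 11279 and both fell by 0.14 (adjusted p = 0.0192 and 0.0416).

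TMX2-CTNND1, with a mean of 7175, rose by 0.11, as did CTNND1, which encodes p120 catenin, by 0.10, whereas TMX2, a thioredoxin-related membrane protein, rose by 0.40. RPL36A-HNRNPH2, with a mean of 7150, was not called at -0.11, and its difference from HNRNPH2, an RNA-binding protein gene that rose by 0.14, was -0.25 (adjusted p = 0.00379), a call lost in 1 of 12 other settings (0.0601). The calls of RPS10-NUDT3, NME1-NME2 and TMX2-CTNND1 were lost in 4, 8 and 8 of 14 other settings, where the adjusted p ran up to 0.125, 0.203 and 0.111. Leaving out pladienolide B replicate 1 or 2 ended all 3 calls, and replicate 3 those of NME1-NME2 and TMX2-CTNND1. Leaving out DMSO replicate 2 ended the call of NME1-NME2 (-0.06), and DMSO replicate 1 or 3 that of TMX2-CTNND1. The calls of CTNND1 and HNRNPH2 were lost in 8 and 5 of 14. NME1 and NME2 are close in sequence, so reads may be split between them.

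How far the shared exons go with the joined change can be described by a weighted sum. For each sample, the reads of each partner were multiplied by the share of its exonic bases that lie in the joined gene, and the sum was treated as a value of the joined gene. The log2 change of this sum was within 0.1 of the observed joined change at 80 of 111 loci, with a median size of the gap of 0.05. The sum and the joined value may hold the same reads from the shared exons. Closeness could then be built in, so no conclusion is drawn from it. The observed level was a median of 179% of the sum. The estimate was -0.34 for BCL2L2-PABPN1 against the observed -0.27, 1.41 for RTEL1-TNFRSF6B against 1.18 and -0.96 for CKLF-CMTM1 against -1.16. It was off at BUB1B-PAK6, with -0.66 against 0.72, at PRR5-ARHGAP8, with -0.26 against 0.22, and at SLX1A-SULT1A3, with -1.56 against -0.24, a locus with a near-identical copy that was named after its values were seen. SLX1A and SULT1A3 had means of only 2.4 and 4.1 adjusted reads and were not tested, so the estimate of -1.56 rests on very few reads.

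**Figure D5:**
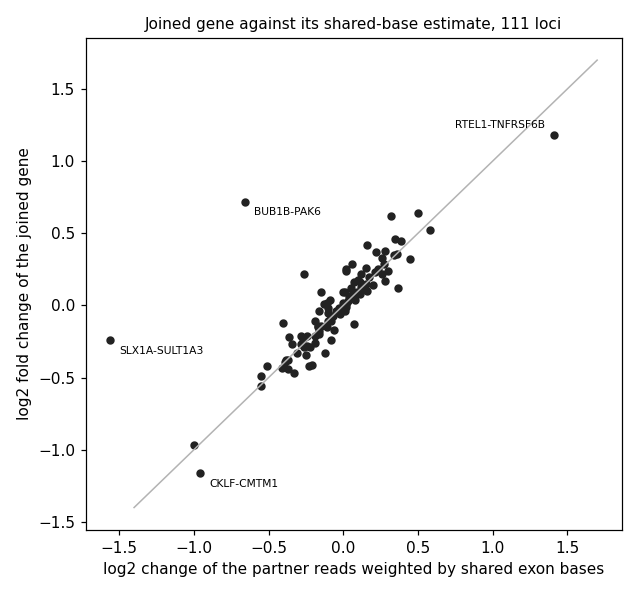
Observed log2 fold change of the joined gene (vertical) against the log2 change of its partners' reads weighted by shared exonic bases (horizontal) at 111 loci, with a line of equal change. The points follow the line, with a median gap of 0.05, and BUB1B-PAK6 and SLX1A-SULT1A3 lie farthest above it. Both axes may hold the same reads from shared exons, so closeness to the line could be built in. The partners SLX1A and SULT1A3 had means of only 2.4 and 4.1 adjusted reads.

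The 44 listed genes that cut, polyadenylate and terminate transcripts were all tested. The list also holds elongation factors and kinases that act on RNA polymerase II before it reaches the end of a gene. Of the 44, 21 rose and 11 fell, which is 72.7% against 47.6% of all genes, with a median of 0.13 and 0 genes at 2-fold or more. The median size of their change was 0.20, against 0.23 for all genes tested, so they did not move further than a typical gene. Their means ran from 385 to 8175 adjusted reads, whereas the share over all genes includes genes with far fewer reads. The 2 shares are therefore not at matched levels. The largest rises were those of RPRD1A (0.46) and SSU72 (0.34, as for WDR82), of which RPRD1A and SSU72 act on the tail of RNA polymerase II, ESS2 (0.45), CPSF3 (0.42), the nuclease that cuts the transcript, and SUPT5H (0.39), an elongation factor.

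CPSF1, the largest subunit of the same cleavage complex, fell most, from 6290, 6331 and 6284 adjusted reads to 3988, 4001 and 4269, by 0.63 (SE 0.0415, adjusted p = 3.6e-09). SYMPK, the scaffold of that complex, fell by 0.47, the elongation kinase gene CDK9 and the phosphatase gene PPP1CA each by 0.36, and CPSF6 by 0.23. Among the factors of termination itself, XRN2, the nuclease that follows the polymerase after the cut, fell by 0.11 and PCF11 by 0.16. The list also holds PABPN1. Whether these changes have a part in the values of the joined genes was not tested.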

How the data were processed

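RNA from 6 OVCAR8 samples had been enriched for poly(A) and sequenced. The methods state alignment to hg38 with hisat2, whereas the submitters' processing notes name HISAT2, HTSeq 0.12.4, DESeq2 and hg19; positions in the table matched GRCh38. The authors deposited 1 signal per gene and sample, reads adjusted to a common library size in the form of edgeR's quantile adjustment. Inverting it gave whole reads, within 0.02, for 100% of 96432 values of 10 or more. The deposited log2 fold change, p-value and q-value columns hold the authors' comparison and were not used. Members and gene lists were chosen with earlier results of these data known; the mean over all 6 samples chose the members.

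Genes were kept by filterByExpr of edgeR 4.0.16 (at least 10 in 3 samples, 15 in total), and log2(value + 1) was fitted with limma 3.58.1 in R 4.3.3, with a trend, two-sided, with Benjamini-Hochberg adjustment. Since the values are adjusted and not counts, limma was the main test, and the pseudocount of 1 shrinks changes of low genes. Fitting was tested on simulated data. Alternatives were edgeR's quasi-likelihood test and DESeq2 1.42.0 on recovered reads, limma-voom, limma without the variance trend, other filters and a pseudocount of 0.1. Others were rescaling by TMM, the replicate block and leaving out each sample. Members with a mean of at least 50, and loci on 1 chromosome and strand, were also taken alone. Named genes were BCL2L2-PABPN1, the 8 largest rises and 8 largest falls called, the 6 loci with the largest called difference from each partner, the 5 highest and 3 lowest means, the 3 genes just under the minimum, their partners, and the 5 largest rises and falls of the termination list; XRN2 and PCF11 were named after their values were seen. One item that this rule names is not reported here. Exons are those of GENCODE v44, which lacked a model for 1 or more genes at 27 of 138 loci, and junctions are those of the joined gene's canonical transcript. The weighted sum over shared exons was chosen after seeing the data.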

Additional observations from a re-analysis of the deposited data

How the results depend on the processing

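The counts of called genes and differences stayed within 1.5 times the reported ones under each of the 17 alternatives, and no called value changed sign. When the samples were left out in turn there were 43 to 55 called joined genes, 44 to 55 upstream and 41 to 51 downstream partners, 25 to 32 differences from the upstream and 10 to 12 from the downstream partner, 35 to 46 between partners, and 27 to 32 termination genes. With the replicate block, 52 joined genes, 51 upstream and 53 downstream partners, 31 termination genes, and 30, 12 and 41 differences were called. The numbers did not pair the samples: deviations of same-numbered samples correlated at -0.1, -0.071 and 0.039, so the block was not used. Under it ZNF559-ZNF177, TMX2-CTNND1, CTNND1 and CRYZL2P lost their calls among the named genes. DESeq2 called 49 joined genes. Without the variance trend, limma called 45 joined genes, 42 upstream and 42 downstream partners and 24 termination genes. That setting called 26 differences from the upstream partner, 13 from the downstream partner and 33 between partners. Over the named genes and differences, 76 of 1171 recomputed gene changes and 14 of 632 recomputed differences lost their call, at 18 genes and 4 differences, with adjusted p-values from 0.0501 to 0.203. The median change of all genes was -0.004, and 0.01 after TMM. Depth limits the joined genes with few reads, such as BUB1B-PAK6 and ZNF664-RFLNA, and no setting separates reads of a joined gene from those of its partners in shared exons.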
